A study of Mus musculus with 8 samples.

Results

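The mouse genome encodes the collagens as a family of genes named by type and chain, and 44 of them were found in both deposited count tables by the pattern of their symbols (Col, a type number, the letter a and a chain number), out of 55202 genes shared by the tables. Of these 44 genes, 43 passed the filter on low counts. Col6a6, a chain of the beaded filament collagens, did not pass and lay between 0.031 and 0.52 CPM in the 8 libraries. CPM is the read count of a gene relative to the library's total, scaled between libraries by trimmed mean of M values (TMM).

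Each library was made from subplate that had been dissected out of newborn somatosensory cortex (postnatal day 0, mixed strain), with tissue of 2 brains pooled. Subplate neurons lie below the cortical plate and are the first cortical partners of arriving thalamic axons. The mutant groups were Emx1Cre11.5;Lhx2lox/lox (called Emx1Cre mutants here) and NexCre;Lhx2lox/lox (NexCre mutants), and each line had its own control group labelled WT. Every group held 2 libraries, so n = 2 pools in each group below. Both mutant groups carry homozygous loxP-flanked alleles of Lhx2, a LIM-homeodomain transcription factor gene. Emx1Cre recombines such alleles in progenitors of the dorsal telencephalon and NexCre in postmitotic excitatory neurons of the cortex. The labels do not say whether controls carried a Cre driver or floxed alleles, so the effects of Cre and of Lhx2 loss cannot be told apart.

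A collagen is a trimer of chains wound into a triple helix that is secreted or set into the cell membrane. Fibrillar collagens form the banded fibrils of connective tissue, and in the brain they are known from the meninges and from larger vessels. Type IV collagen forms the sheet of every basement membrane, which in newborn cortex lies around capillaries and beneath the pia. Transmembrane collagens, of which Col23a1 encodes one, span the plasma membrane once and carry their triple helix outside the cell, from where it can be shed.

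Depth ran from 31.2 to 64.4 M reads per library. Lhx2 stood at 64.0 and 42.7 CPM in Emx1Cre mutants and 90.4 and 91.5 CPM in their controls, a log2 fold change of -0.77 ± 0.20 that did not pass the test (edgeR quasi-likelihood test, adjusted p = 0.273; each ± is a standard error, SE). In the libraries labelled NexCre mutant it stood at 227 and 245 CPM, against 182 and 236 CPM in NexCre controls (0.18 ± 0.20), so it was not lower there, and counts over the whole gene do not show whether its floxed part was removed. Cplx3, a defining subplate marker, lay between 0.679 and 1.42 CPM in the 4 NexCre libraries, and the 8 subplate markers summed to 71.1 to 83.6 CPM there, against 282 to 398 CPM in the 4 Emx1Cre libraries. Within the Emx1Cre line these markers summed to 282 and 287 CPM in mutants and 354 and 398 CPM in controls, without overlap. Of the 8, 4 were lower and none higher before adjustment, beside 3.07% and 4.52% of all genes. None passed the test in edgeR, and DESeq2 called Cplx3, Kcnab1 and Nxph4 lower. The part of this difference in the collagen values below was not tested. Where levels are compared between the lines, each line has its own count table. Line, dissection and any batch therefore cannot be told apart in such comparisons. Single libraries stood apart in markers of neighbouring tissue. Emx1Cre mutant 2 was highest in its line for summed meningeal markers (335 CPM, against 218 to 237 CPM in the other 3) and striatal markers (453 CPM, against 147 to 178 CPM). Most of the meningeal sum is Pdgfra, so it says little of the other markers. Taken gene by gene, both Emx1Cre mutants lay above both controls for 17 of the 19 meningeal markers, beside 15.1% of all genes. NexCre mutant 1 held 2099 CPM of choroid plexus markers and NexCre control 1 held 390 CPM, with 23.4 and 6.49 CPM in their partners. NexCre control 1 also held 427 CPM of thalamic markers, against 195 to 242 CPM in the other NexCre libraries. In such bulk tissue, more cells of a type and more RNA per cell cannot be told apart, for collagens as for markers.

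Counted per kilobase of exon (RPKM), which allows levels of different genes to be compared, the 2 ubiquitous type IV chains led the family. Col4a1 averaged 24.3 RPKM over the 8 libraries and Col4a2 20.8 RPKM. Col9a3, a chain of a fibril-associated collagen, followed at 8.80 RPKM and Col23a1 at 5.50 RPKM. Their ranges over libraries were 18.0 to 29.7 RPKM for Col4a1, 13.7 to 32.5 for Col4a2, 6.69 to 11.9 for Col9a3 and 2.13 to 12.5 for Col23a1, so the type IV pair lay above Col9a3 and Col23a1 without overlap, and the genes within each of these pairs overlapped. Below them came Col9a2 (3.53 RPKM) and Col4a5 (2.69 RPKM), whose ranges overlapped as well. In all, 18 of 44 collagens averaged at least 1 RPKM, and Col6a6 was lowest at 0.0197 RPKM. Col4a1 and Col4a2 together made up 42.9% to 57.6% of the summed collagen CPM of a library.

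**Figure D1:**
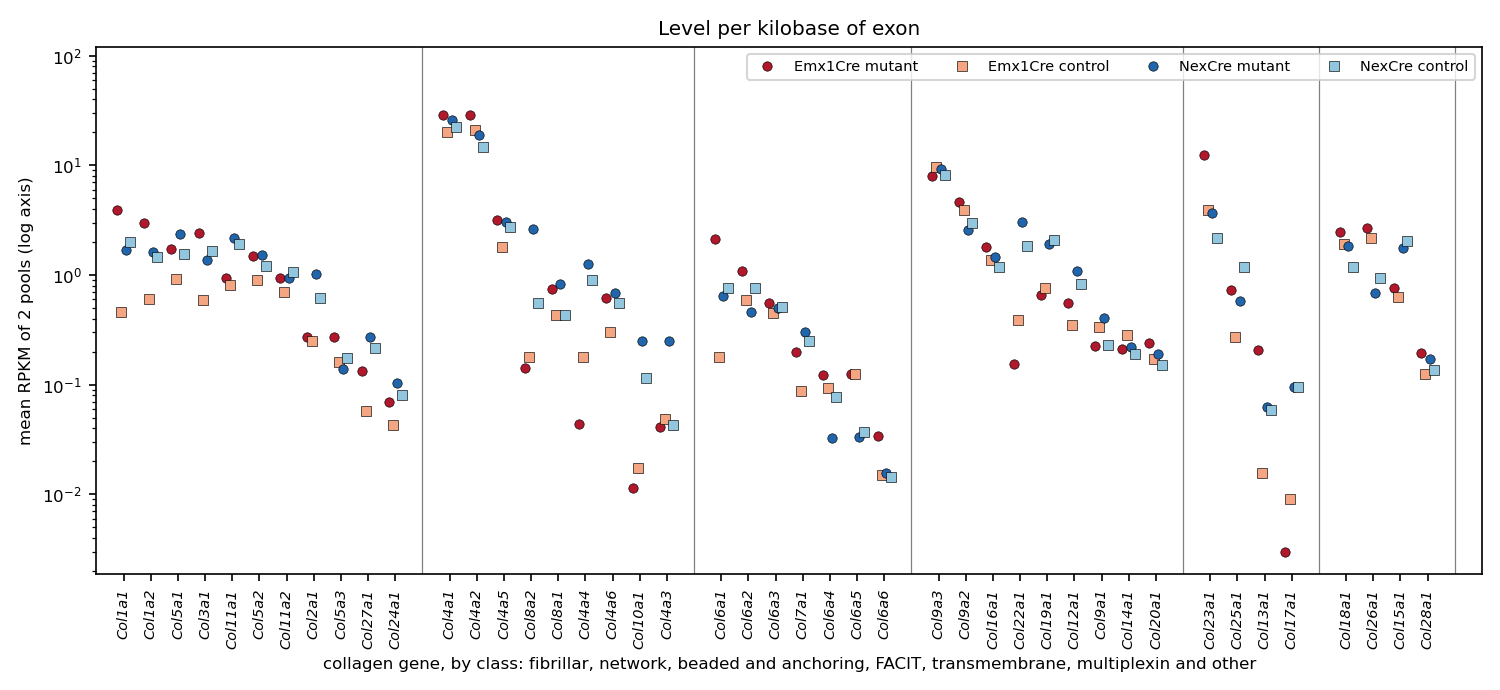
Mean level of each of the 44 collagen genes in RPKM (log axis) for the 4 groups, each symbol the mean of 2 pools, ordered within 6 structural classes. Col4a1 and Col4a2 stand highest, and the transmembrane collagen Col23a1 is above its other groups in Emx1Cre mutants, at 12.3 RPKM.

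Emx1Cre mutants address loss of Lhx2 from the progenitor stage on. Of the 43 collagens tested, 1 rose (Col23a1) and none fell at an adjusted p under 0.05 over 22820 genes (edgeR), where 18 genes or 0.0789% of all tested were called in either direction and 0.0219% as higher. DESeq2 called 5 collagens, Col1a1, Col6a1, Col13a1 and Col23a1 as higher and Col4a4 as lower. Over all genes it called 300 of 20833, with 175 higher and 125 lower. Before adjustment, edgeR gave p under 0.05 to 16 collagens, 14 higher and 2 lower, beside 7.59% of all genes (4.52% higher, 3.07% lower). The 14 were Col1a1, Col1a2, Col3a1, Col5a1, Col5a2 and Col27a1 of the fibrillar class, Col4a1, Col4a2 and Col4a5 of type IV, Col6a1, Col7a1, Col12a1, Col13a1 and Col23a1, and the 2 lower were Col4a4 and Col22a1. The median log2 fold change of the collagens was 0.46, beside 0.00 for all genes tested, and 32 of 43 (74.4%) were above 0, beside 45.9% of all genes. Both mutants lay above both controls for 19 collagens and below them for 3, where 15.1% and 15.2% of all genes did so. Summed over the family, collagens reached 683 and 937 CPM in Emx1Cre mutants and 466 and 564 CPM in their controls, without overlap. Leaving out Emx1Cre mutant 2 gave a collagen median of 0.31, beside 0.00 for all genes in that fit. With 2 pools against 2, no exact permutation test can go below a two-sided p of 0.333, and the p-values of edgeR rest on a spread estimated over all 8 libraries and measure differences between pools.

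In the NexCre line, recombination starts in neurons that have left the cell cycle. None of the 43 collagens passed the test there in edgeR or DESeq2. Over all genes, edgeR called 7 (0.0307%, with 0.0175% higher and 0.0131% lower) and DESeq2 called 79 of 21502. Before adjustment, 3 collagens were higher with p under 0.05 (Col23a1, Col4a3 and Col18a1) and none lower, beside 3.96% of all genes (1.69% higher, 2.27% lower). The median was 0.22 beside 0.00 for all genes, 29 of 43 collagens were above 0 (67.4%, beside 50.6% of all genes), and both libraries labelled mutant lay above both controls for 15 and below for 3, beside 18.1% and 17.7% of all genes. The collagen sums were 674 and 724 CPM in the libraries labelled NexCre mutant and 630 and 555 CPM in NexCre controls. The difference of the effects in the 2 lines passed the test for no collagen in edgeR, where 1 gene (0.00438%) did, and 30 of 43 collagens were more positive in the Emx1Cre line, beside 49.3% of all genes. Before adjustment, 7 collagens were more positive and 4 more negative with p under 0.05, beside 5.44% of all genes (3.38% and 2.06%). DESeq2 called this difference for Col4a4 and Col6a1, among 99 of 18825 genes.

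**Figure D2:**
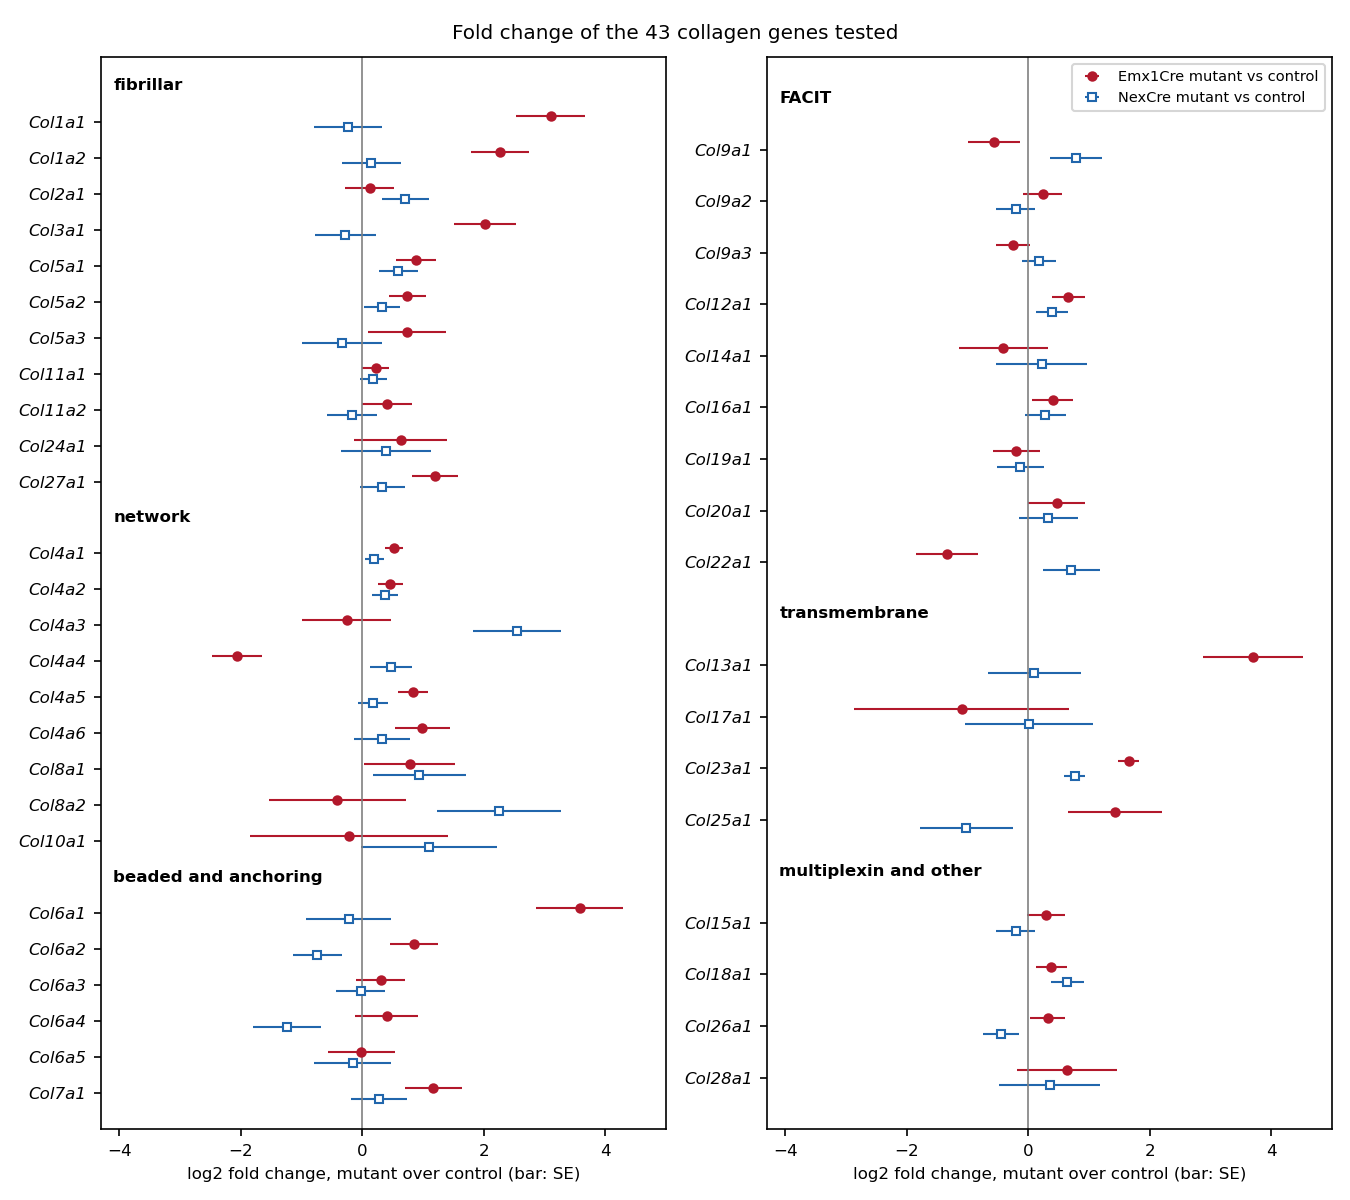
Log2 fold change (mutant over control) of the 43 collagen genes tested, by structural class, with bars of 1 SE; filled circles are the Emx1Cre line and open squares the NexCre line, 2 pools against 2 in each. All 11 fibrillar collagens are right of 0 in the Emx1Cre line (8 of 11 without Emx1Cre mutant 2), and Col23a1 is the collagen with the narrowest bar among those above 1.

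Col23a1, which lies on the plus strand of chromosome 11 (chr11:51289920-51583918, mm10), encodes the alpha chain of the transmembrane type XXIII collagen. It stood at 69.5 and 71.6 CPM in Emx1Cre mutants (3921 and 2893 reads) and 19.3 and 25.6 CPM in their controls (1245 and 947 reads). The mutant pools lay close together and well above both controls. It rose by 1.65 ± 0.18 on the log2 scale (95% interval 1.25 to 2.05, adjusted p = 0.0334 in edgeR and 4.05e-11 in DESeq2). In the libraries labelled NexCre mutant Col23a1 stood at 19.3 and 22.5 CPM, against 12.2 and 12.5 CPM in NexCre controls. Those groups did not overlap either, but the log2 fold change of 0.76 ± 0.18 (0.35 to 1.16) did not pass the test (unadjusted p = 0.00205, adjusted p = 0.552 in edgeR, adjusted p = 0.0866 in DESeq2). The effect in the Emx1Cre line was larger by 0.90 ± 0.26 (0.33 to 1.47), a difference that did not pass the test either (unadjusted p = 0.00569, adjusted p = 0.648 in edgeR). As a share of the summed collagen CPM, Col23a1 made up 10.2% and 7.64% in Emx1Cre mutants against 4.15% and 4.54% in their controls, and 2.87% and 3.11% in libraries labelled NexCre mutant against 1.94% and 2.26% in NexCre controls.

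The size of the Col23a1 difference did not rest on a single pool. Leaving out each library in turn gave log2 fold changes of 1.47 to 1.86 in the Emx1Cre line. Without Emx1Cre mutant 2, the library with the highest summed meningeal markers, it was 1.64. Both Emx1Cre mutants lay above both controls for 17 of the 19 meningeal markers, beside 15.1% of all genes, so this fit does not remove that difference. The part of meningeal tissue in the Col23a1 values was not tested. Its call was less firm than its size, because the adjusted p in edgeR was 0.0966 without Emx1Cre mutant 2, 0.0701 without Emx1Cre control 1, 0.0535 without NexCre mutant 1, 0.0733 without NexCre mutant 2 and 0.0659 with the Emx1Cre line fitted alone. It stayed past the threshold in 10 of 15 alternatives.

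The 250 bases upstream of the Col23a1 start site are shown because they hold the promoter of the collagen that was called, and those of Col1a2, Col3a1 and Col6a1 because a single library held several times more of these genes than the others of its line. The sequences are from RefSeq (GRCm38.p6, the build also called mm10), read 5′ to 3′ on the strand of the gene and end at the base before its start site. They are chr11:51289670-51289919 (plus) for Col23a1, chr6:4505368-4505617 (plus) for Col1a2, chr1:45311288-45311537 (plus) for Col3a1 and chr10:76726045-76726294 (minus) for Col6a1. Capitals mark matches, on either strand, to TAATTA (the core recognised by many homeodomain proteins), GGGCGG (the GC box), TATAAA (the TATA box) and CCAAT.
Col23a1: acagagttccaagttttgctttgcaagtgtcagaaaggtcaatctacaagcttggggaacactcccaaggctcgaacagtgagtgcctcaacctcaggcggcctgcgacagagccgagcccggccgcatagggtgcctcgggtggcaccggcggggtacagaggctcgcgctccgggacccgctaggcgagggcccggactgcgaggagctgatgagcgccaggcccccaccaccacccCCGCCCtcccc
Col1a2: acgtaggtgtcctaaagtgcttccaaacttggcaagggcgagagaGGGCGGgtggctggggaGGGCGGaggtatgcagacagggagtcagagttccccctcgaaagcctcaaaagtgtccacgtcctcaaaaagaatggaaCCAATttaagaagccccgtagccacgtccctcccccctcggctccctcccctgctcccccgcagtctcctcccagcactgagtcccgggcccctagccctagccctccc
Col3a1: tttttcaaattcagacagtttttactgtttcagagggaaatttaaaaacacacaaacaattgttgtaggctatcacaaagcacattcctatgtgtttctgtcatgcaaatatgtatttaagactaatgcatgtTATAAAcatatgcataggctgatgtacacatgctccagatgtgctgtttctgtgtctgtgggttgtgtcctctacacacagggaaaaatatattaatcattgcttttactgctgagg
Col6a1: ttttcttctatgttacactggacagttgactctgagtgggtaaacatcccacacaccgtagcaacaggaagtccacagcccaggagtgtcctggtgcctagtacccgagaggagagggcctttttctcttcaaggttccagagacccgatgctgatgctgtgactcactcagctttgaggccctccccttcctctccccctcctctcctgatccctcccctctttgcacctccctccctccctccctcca
The Col23a1 window held a single match, to the GC box on the opposite strand, 11 bases before the start, and its GC content was 66.0%. The window of Col1a2 held 2 GC boxes and a CCAAT, that of Col3a1 a TATAAA 117 bases before the start, and that of Col6a1 no match. Windows were at hand for 35 of the 44 collagens, 38 in all with alternative starts. Among these 38, TAATTA was found in 2 (5.26%, beside 4.85% of 32817 windows of all genes), in Col10a1 and Col11a2. GGGCGG was found in 22 (57.9%, beside 32.7%), TATAAA in 5 (13.2%, beside 12.4%) and CCAAT in 13 (34.2%, beside 33.8%). The median GC content of all windows was 52.4%. The shares were not matched for GC content, so that of GGGCGG does not set collagens apart from other GC-rich windows. A match of letters does not show that a factor binds, and the absence of a match in 250 bases says nothing of other regions.

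**Figure D3:**
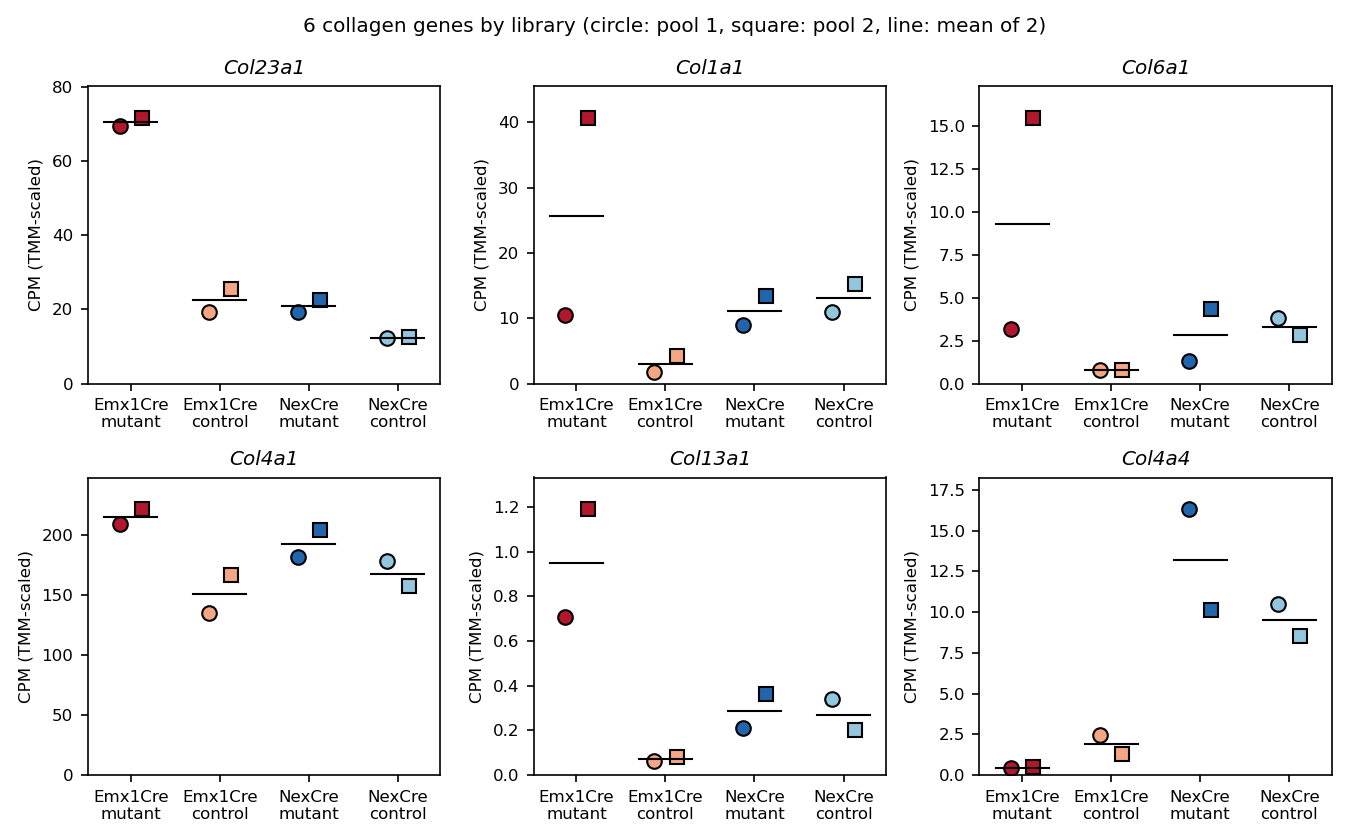
CPM of 6 collagen genes in each of the 8 libraries, with circles for pool 1, squares for pool 2 and a line at the mean of 2 pools; each panel has its own axis. Emx1Cre mutants are at 69.5 and 71.6 CPM for Col23a1, whereas Col1a1 and Col6a1 are high mainly in Emx1Cre mutant 2, at 40.7 and 15.5 CPM.

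The 11 fibrillar collagens had a median log2 fold change of 0.74 in the Emx1Cre line, with all 11 above 0, and of 0.18 in the NexCre line, with 7 of 11 above 0. Without Emx1Cre mutant 2 the Emx1Cre median was 0.46 and 8 of 11 were above 0, with Col5a3 at -0.09, Col11a1 at -0.02 and Col11a2 at -0.09. The NexCre median was -0.25 without NexCre mutant 2. None passed the test in edgeR in either line, and 6 were higher before adjustment in the Emx1Cre line, beside 4.52% of all genes. Log2 fold changes above 0 were found for 45.9% of all genes in the Emx1Cre line and 50.6% in the NexCre line. Col1a1, a chain of the type I collagen of bone, skin and meninges, stood at 10.5 and 40.7 CPM in Emx1Cre mutants and at 1.81 and 4.24 CPM in their controls. Mutant 2 held 3.88 times the CPM of mutant 1, and both lay above both controls. The log2 fold change was 3.10 ± 0.57 (1.82 to 4.37, adjusted p = 0.143 in edgeR, 0.0178 in DESeq2), and 1.82 without Emx1Cre mutant 2. Its partner chain Col1a2 stood at 16.3 and 57.1 CPM in Emx1Cre mutants and at 9.12 and 5.97 CPM in their controls (2.27 ± 0.48, adjusted p = 0.191), and at 1.11 on the log2 scale without mutant 2. Col3a1, the chain of the fibrillar type III collagen, which is a ligand of the receptor Gpr56 in developing cortex, stood at 11.5 and 35.5 CPM in the mutants against 6.53 and 4.97 CPM in the controls (2.02 ± 0.51, adjusted p = 0.273), and at 0.99 without mutant 2. The groups of these 3 genes did not overlap, but mutant 2 alone was 3.10 to 3.88 times the next library.

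The NexCre line gave no such order for these 3 chains. Col1a1 stood at 8.89 and 13.4 CPM in the libraries labelled NexCre mutant and 10.9 and 15.3 CPM in NexCre controls. Col1a2 stood at 15 and 24.8 CPM in libraries labelled NexCre mutant and 17.1 and 18.8 CPM in NexCre controls. Col3a1 stood at 7.65 and 19.1 CPM in libraries labelled NexCre mutant and 16.7 and 15.9 CPM in NexCre controls. All 3 overlapped between groups, with log2 fold changes of -0.24 ± 0.56, 0.15 ± 0.48 and -0.28 ± 0.50. All 4 NexCre libraries lay above both Emx1Cre controls for Col1a1.

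Of the other fibrillar genes, Col27a1, a chain known from cartilage, stood at 1.86 and 1.58 CPM in Emx1Cre mutants and 0.714 and 0.784 CPM in their controls, without overlap (1.20 ± 0.38, adjusted p = 0.444). Col5a1, whose product starts and limits the growth of type I fibrils, stood at 12 and 17.1 CPM in Emx1Cre mutants against 5.13 and 10.6 CPM in their controls (0.89 ± 0.33, and 1.49 without control 2), and at 17.8 and 21.9 CPM in libraries labelled NexCre mutant against 12.4 and 14.0 CPM in NexCre controls (0.59 ± 0.32). Its groups did not overlap in either line. Col2a1, the main collagen of cartilage, stood at 3.23 and 1.83 CPM in Emx1Cre mutants against 2.79 and 1.86 CPM in their controls, with overlap. It stood at 10.7 and 8.03 CPM in libraries labelled NexCre mutant against 7.16 and 4.29 CPM in NexCre controls, without overlap (0.71 ± 0.39, adjusted p = 1.0). The other 5 fibrillar genes, Col5a2, Col5a3, Col11a1, Col11a2 and Col24a1, lay between 0.22 and 0.74 in log2 fold change in the Emx1Cre line and between -0.33 and 0.39 in the NexCre line.

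Meningeal markers lay higher in the same libraries as the fibrillar chains. Both Emx1Cre mutants lay above both controls for 17 of the 19 meningeal markers, beside 15.1% of all genes. Before adjustment 14 were higher and 1 lower, beside 4.52% and 3.07% of all genes, and none passed the test in edgeR. DESeq2 called 8 higher and 1, Ngfr, lower. The median log2 fold change of the list was 2.27. Dcn, a proteoglycan of meningeal fibroblasts, stood at 1.15 and 11.3 CPM in Emx1Cre mutants and 0.264 and 0.108 CPM in their controls. Lum, a related proteoglycan, stood at 0.638 and 2.13 CPM in Emx1Cre mutants and 0.558 and 0.324 CPM in their controls. Ogn, of the same family, stood at 0.762 and 3.47 CPM in Emx1Cre mutants and 1.85 and 0.108 CPM in their controls. All 3 were highest in mutant 2, and Ogn overlapped between groups. Aldh1a2, which makes retinoic acid in the meninges, stood at 0.532 and 7.65 CPM in Emx1Cre mutants and at 0.031 and 0 CPM in their controls. Foxc2, Slc6a13 and Slc13a4 were also at 0 in 1 of the 2 Emx1Cre controls. Most of the list's summed CPM is Pdgfra, shared with oligodendrocyte precursors, at 190 and 232 CPM in Emx1Cre mutants against 171 and 177 CPM in their controls. For the NexCre line the list summed to 139 and 143 CPM in libraries labelled mutant against 140 and 144 CPM in controls. Of the 19, none lay above and 6 below both controls there, beside 18.1% and 17.7% of all genes. In the Emx1Cre line the sum of Col1a1, Col1a2 and Col3a1 was also highest in mutant 2, at 38.2 and 133 CPM in mutants and 17.5 and 15.2 CPM in controls. Col23a1 was at 69.5 and 71.6 CPM in the mutants. The part of meningeal tissue in the fibrillar and Col23a1 values was not tested.

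**Figure D4:**
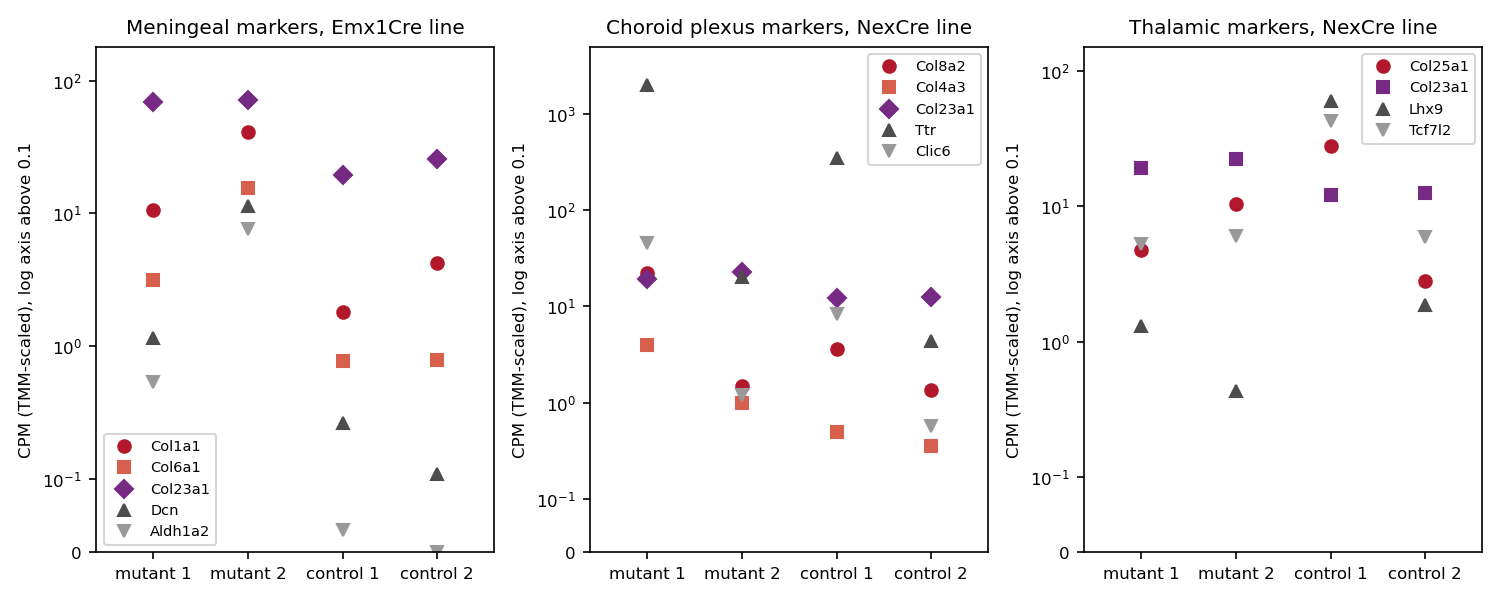
CPM (log axis above 0.1, linear below) of collagens in colour and of markers of neighbouring tissue in grey, by library: meningeal markers in the Emx1Cre line, and choroid plexus and thalamic markers in the NexCre line. Col1a1, Col6a1, Dcn and Aldh1a2 are all highest in Emx1Cre mutant 2, and Col8a2, Col4a3 and Ttr in NexCre mutant 1. Col23a1 is at like levels in the 2 pools of each group.

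Among the 7 beaded filament and anchoring fibril genes, 6 were tested, with a median of 0.63 in the Emx1Cre line (0.30 without Emx1Cre mutant 2) and -0.19 in the NexCre line. The NexCre median was 0.04 without NexCre mutant 1 and -0.61 without NexCre mutant 2. Those 2 values are over 7 genes, because Col6a6 passed the filter in these fits. Col6a1, a chain of the type VI collagen that fibroblasts secrete around cells, stood at 3.16 and 15.5 CPM in Emx1Cre mutants and 0.776 and 0.784 CPM in their controls, with mutant 2 at 4.93 times mutant 1. The groups did not overlap, and the log2 fold change was 3.58 ± 0.72 (1.97 to 5.18, adjusted p = 0.178 in edgeR, 1.76e-05 in DESeq2), and 2.02 without mutant 2. For the NexCre line, Col6a1 stood at 1.31 and 4.36 CPM in libraries labelled mutant and 3.80 and 2.85 CPM in controls, with overlap (-0.22 ± 0.70). The difference of these effects was called by DESeq2 but not by edgeR (adjusted p = 0.648).

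Its neighbour and partner chain Col6a2 lies in tandem with it, 85161 bases away. Col6a2 stood at 5.12 and 12.8 CPM in Emx1Cre mutants against 4.14 and 5.78 CPM in their controls, with overlap (0.85 ± 0.40, and 0.05 without mutant 2), and at 3.47 and 4.15 CPM in libraries labelled NexCre mutant against 6.88 and 5.84 CPM in NexCre controls, without overlap (-0.74 ± 0.41). Col6a4 lay above in one line and below in the other: 1.05 and 1.04 CPM in Emx1Cre mutants against 0.822 and 0.757 CPM in their controls (0.40 ± 0.52), and 0.289 and 0.267 CPM in libraries labelled NexCre mutant against 0.591 and 0.724 CPM in NexCre controls (-1.24 ± 0.56). None of these passed the test, and the difference of effects for Col6a4 did not either (unadjusted p = 0.057). Col7a1, the chain of the anchoring fibrils of skin, stood at 1.95 and 2.10 CPM in Emx1Cre mutants against 0.931 and 0.865 CPM in their controls, without overlap (1.17 ± 0.47, adjusted p = 0.611). The remaining pair, Col6a3 and Col6a5, gave 0.30 ± 0.40 and -0.02 ± 0.55 in the Emx1Cre line and -0.03 ± 0.41 and -0.16 ± 0.63 in the NexCre line.

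The network-forming class has 9 genes, 6 of type IV, 2 of type VIII and Col10a1. Their medians were 0.46 in the Emx1Cre line and 0.47 in the NexCre line. All 9 were above 0 in the NexCre line (7 of 9 without NexCre mutant 1), beside 50.6% of all genes. None passed the test in edgeR in either line. Col4a1 stood at 209 and 221 CPM in Emx1Cre mutants and 135 and 166 CPM in their controls, and Col4a2 at 164 and 215 CPM in Emx1Cre mutants and 117 and 158 CPM in their controls. The mutants lay above the controls for both, with log2 fold changes of 0.52 ± 0.15 (adjusted p = 0.374) and 0.46 ± 0.21 (adjusted p = 0.655). Col4a1 stood at 181 and 204 CPM in libraries labelled NexCre mutant against 178 and 157 CPM in NexCre controls (0.20 ± 0.15), and Col4a2 at 108 and 144 CPM in libraries labelled NexCre mutant against 105 and 90.9 CPM in NexCre controls (0.37 ± 0.21). The groups did not overlap in the NexCre line either. The pair is transcribed head to head on chromosome 8 with 22 bases shared at their starts, and without a stated strand setting reads there cannot be told apart. The ratio of their CPM was 1.27 and 1.03 in Emx1Cre mutants, 1.15 and 1.05 in their controls, 1.67 and 1.42 in libraries labelled NexCre mutant and 1.70 and 1.73 in NexCre controls, so that all 4 Emx1Cre values lay below the 4 NexCre values.

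Markers of the vessels that lay down type IV collagen lay in the same direction in the Emx1Cre line. The 12 endothelial markers summed to 591 and 421 CPM in Emx1Cre mutants and 433 and 318 CPM in their controls, with overlap. All 12 were above 0 with a median of 0.50, and none passed the test in edgeR (4 before adjustment) or DESeq2. Of all genes, 45.9% were above 0 and 4.52% higher before adjustment in the Emx1Cre line. Cldn5, a tight junction protein, stood at 104 and 91.9 CPM in Emx1Cre mutants and 78.1 and 59.9 CPM in their controls. The adhesion molecule Pecam1 stood at 36.3 and 27.4 CPM in Emx1Cre mutants and 25.3 and 24 CPM in their controls, and the endothelial cadherin Cdh5 at 31.6 and 28.4 CPM in Emx1Cre mutants and 20.3 and 17.9 CPM in their controls. Their log2 fold changes were 0.50, 0.37 and 0.65, beside 0.52 for Col4a1 and 0.46 for Col4a2. The 10 mural cell markers summed to 361 and 350 CPM in Emx1Cre mutants against 249 and 229 CPM in their controls, with a median of 0.66 (5 higher before adjustment, none called by edgeR or DESeq2), and in the first 3 of that list Pdgfrb was 0.45 ± 0.25, Rgs5 0.46 ± 0.23 and Kcnj8 0.67 ± 0.33. The 12 astrocyte markers summed to 5284 and 4508 CPM in Emx1Cre mutants and 2509 and 2204 CPM in their controls, with a median of 0.98. For 11 of the 12 both mutants lay above both controls, beside 15.1% of all genes, and 9 were higher before adjustment. DESeq2 called 8 higher. In edgeR 1 passed the test: Sparcl1, an astrocyte-secreted matrix protein, which rose by 1.24 ± 0.16 (adjusted p = 0.0334). The endothelial sums were 293 and 299 CPM in libraries labelled NexCre mutant and 255 and 234 CPM in NexCre controls. The mural sums were 220 and 255 CPM in libraries labelled NexCre mutant and 248 and 195 CPM in NexCre controls, and the astrocyte sums 1482 and 1345 CPM in libraries labelled NexCre mutant and 1520 and 1084 CPM in NexCre controls. Of these 3 lists, the endothelial sums alone did not overlap in the NexCre line. The part of vessel content in the type IV values was not tested. Like the astrocyte sum, Col23a1 was higher in both Emx1Cre mutant pools, at 69.5 and 71.6 CPM against 19.3 and 25.6 CPM in their controls. The part of astrocyte content in the Col23a1 values was not tested either.

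The minor type IV chains differed among themselves. Col4a5, which pairs with Col4a6 or with the Col4a3 and Col4a4 chains, stood at 22.0 and 20.8 CPM in Emx1Cre mutants and 14.6 and 9.54 CPM in their controls, without overlap (0.83 ± 0.25, adjusted p = 0.389). Among NexCre libraries, Col4a5 stood at 19.7 and 21.6 CPM in libraries labelled mutant and 21.3 and 15.2 CPM in controls, with overlap (0.18 ± 0.25). Col4a6, its head-to-head neighbour on the X chromosome, stood at 4.11 and 5.64 CPM in Emx1Cre mutants and 3.55 and 1.30 CPM in their controls (0.99 ± 0.46). Its groups did not overlap, but the log2 fold change was 1.91 without control 1 and 0.44 without control 2. Col4a4, known from the basement membranes of kidney and ear, stood at 0.426 and 0.495 CPM in Emx1Cre mutants and 2.47 and 1.32 CPM in their controls. The mutants lay below both controls, by -2.06 ± 0.41 on the log2 scale (-2.96 to -1.15, adjusted p = 0.143 in edgeR, 4.5e-04 in DESeq2). These were 24 and 20 reads in Emx1Cre mutants against 159 and 49 reads in their controls. The value was -1.52 without Emx1Cre control 1 and -2.43 without Emx1Cre control 2. Every NexCre library held more Col4a4 than every Emx1Cre library, at 16.3 and 10.1 CPM in those labelled mutant and 10.5 and 8.56 CPM in controls, with overlap (0.47 ± 0.35). The difference of effects was -2.53 ± 0.54 (unadjusted p = 0.000844, adjusted p = 0.512 in edgeR, 0.00442 in DESeq2).

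Col4a3 lies head to head with Col4a4 on chromosome 1, with 71 bases between them. It stood at 3.97 and 0.994 CPM in libraries labelled NexCre mutant and 0.498 and 0.350 CPM in NexCre controls (2.55 ± 0.72, unadjusted p = 0.00639, adjusted p = 0.887 in edgeR), and at 0.426 and 0.396 CPM in Emx1Cre mutants against 0.667 and 0.297 CPM in their controls (-0.26 ± 0.73). The NexCre value was 1.22 without NexCre mutant 1, which held 3.99 times the Col4a3 of its partner. A stretch of 563 exonic bases (5.65%) of Col4a3 is shared with an annotated non-coding neighbour on the other strand. Col8a2, a chain of the corneal Descemet membrane, was also highest in that library, with 22.1 and 1.48 CPM in libraries labelled NexCre mutant against 3.64 and 1.35 CPM in NexCre controls, with overlap (2.25 ± 1.02), and -0.76 without NexCre mutant 1. That library also held the most choroid plexus marker RNA, with Ttr, the transthyretin gene, at 1966 CPM, against 346 CPM in NexCre control 1. Ttr made up most of the list's 2099 CPM there. The 8 markers ran from -3.13 to 2.51 in the NexCre line, with 6 above 0, 7 overlapping between groups and 1 below both controls. Before adjustment 1 was lower and none higher, beside 2.27% and 1.69% of all genes. The part of choroid plexus in the Col4a3 and Col8a2 values was not tested. Col8a1, its partner, was highest in the same library, at 10.9 CPM, and its NexCre value of 0.94 ± 0.76 was -0.79 without it. The last gene of the class, Col10a1, known from cartilage, was between 0 and 0.894 CPM in the 8 libraries.

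The 9 fibril-associated (FACIT) genes had medians of -0.20 in the Emx1Cre line (0.29 without Emx1Cre control 2) and 0.28 in the NexCre line. Col9a3, which encodes a chain of the type IX collagen of cartilage, was the most abundant of them and overlapped between groups in both lines, at 25.8 and 36.4 CPM in Emx1Cre mutants against 31 and 42.8 CPM in their controls and 45.7 and 26.2 CPM in libraries labelled NexCre mutant against 29.8 and 33.6 CPM in NexCre controls. It shares 234 exonic bases (6.07%) with Tcfl5 on the other strand. Col9a1, a partner chain, stood at 1.13 and 1.16 CPM in Emx1Cre mutants, below the 1.57 and 1.86 CPM in their controls (-0.57 ± 0.43). It stood at 2.24 and 1.84 CPM in libraries labelled NexCre mutant, above the 0.903 and 1.45 CPM in NexCre controls (0.79 ± 0.43). Neither passed the test, nor did the difference (unadjusted p = 0.0497, adjusted p = 0.914). Col22a1, named because a single library carries its value, stood at 1.15 and 1.71 CPM in Emx1Cre mutants against 5.66 and 1.43 CPM in their controls, with control 1 at 3.31 times the next. Its log2 fold change of -1.34 ± 0.51 was -0.01 without Emx1Cre control 1. Its NexCre levels were 32.0 and 23.6 CPM in libraries labelled mutant against 15.6 and 18.4 CPM in controls, without overlap (0.71 ± 0.47). The other 6 FACIT genes, Col9a2, Col12a1, Col14a1, Col16a1, Col19a1 and Col20a1, lay between -0.41 and 0.66 in the Emx1Cre line and between -0.21 and 0.39 in the NexCre line.

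Of the 4 transmembrane collagens, Col13a1, which encodes a chain found at cell junctions and the neuromuscular synapse, stood at 0.709 and 1.19 CPM in Emx1Cre mutants and 0.062 and 0.0811 CPM in their controls, that is 40 and 48 reads in mutants against 4 and 3 reads in controls. The groups did not overlap, and the log2 fold change was 3.70 ± 0.82 (1.86 to 5.53, adjusted p = 0.191 in edgeR, 0.0358 in DESeq2), with both mutant pools high. Its NexCre levels were 0.21 and 0.364 CPM in libraries labelled mutant and 0.342 and 0.20 CPM in controls (0.10 ± 0.77). Col25a1, known from neurons and from amyloid plaques, stood at 8.49 and 10.4 CPM in Emx1Cre mutants against 2.92 and 4.13 CPM in their controls (1.43 ± 0.77). Col25a1 was at 4.76 and 10.4 CPM in libraries labelled NexCre mutant against 27.9 and 2.80 CPM in NexCre controls (-1.02 ± 0.76). The value turned to 1.43 without NexCre control 1, the library with the highest summed thalamic markers, where Lhx9 stood at 59.9 CPM. Of the 10 thalamic markers, 2 were above 0 in the NexCre line. Before adjustment 4 were lower and 1 higher, beside 2.27% and 1.69% of all genes, and DESeq2 called Slc6a4 higher. The part of thalamic tissue in the Col25a1 values was not tested. Col17a1, of the hemidesmosome, was at 0 to 0.108 CPM in the Emx1Cre libraries and at 0.449 to 0.685 CPM in the NexCre libraries.

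Among the 4 remaining genes, the multiplexins Col15a1 and Col18a1 and the genes Col26a1 and Col28a1, medians were 0.35 in the Emx1Cre line and 0.07 in the NexCre line. Col18a1, a basement membrane collagen from which endostatin is cleaved, stood at 13.4 and 21.2 CPM in Emx1Cre mutants against 11.4 and 15.3 CPM in their controls, with overlap (0.38 ± 0.26). Its NexCre levels were 12.5 and 13.5 CPM in libraries labelled mutant against 8.96 and 7.74 CPM in controls, without overlap (0.64 ± 0.27, unadjusted p = 0.0375, adjusted p = 1.0 in edgeR). The other 3 gave 0.29 to 0.64 in the Emx1Cre line and -0.45 to 0.35 in the NexCre line.

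**Figure D5:**
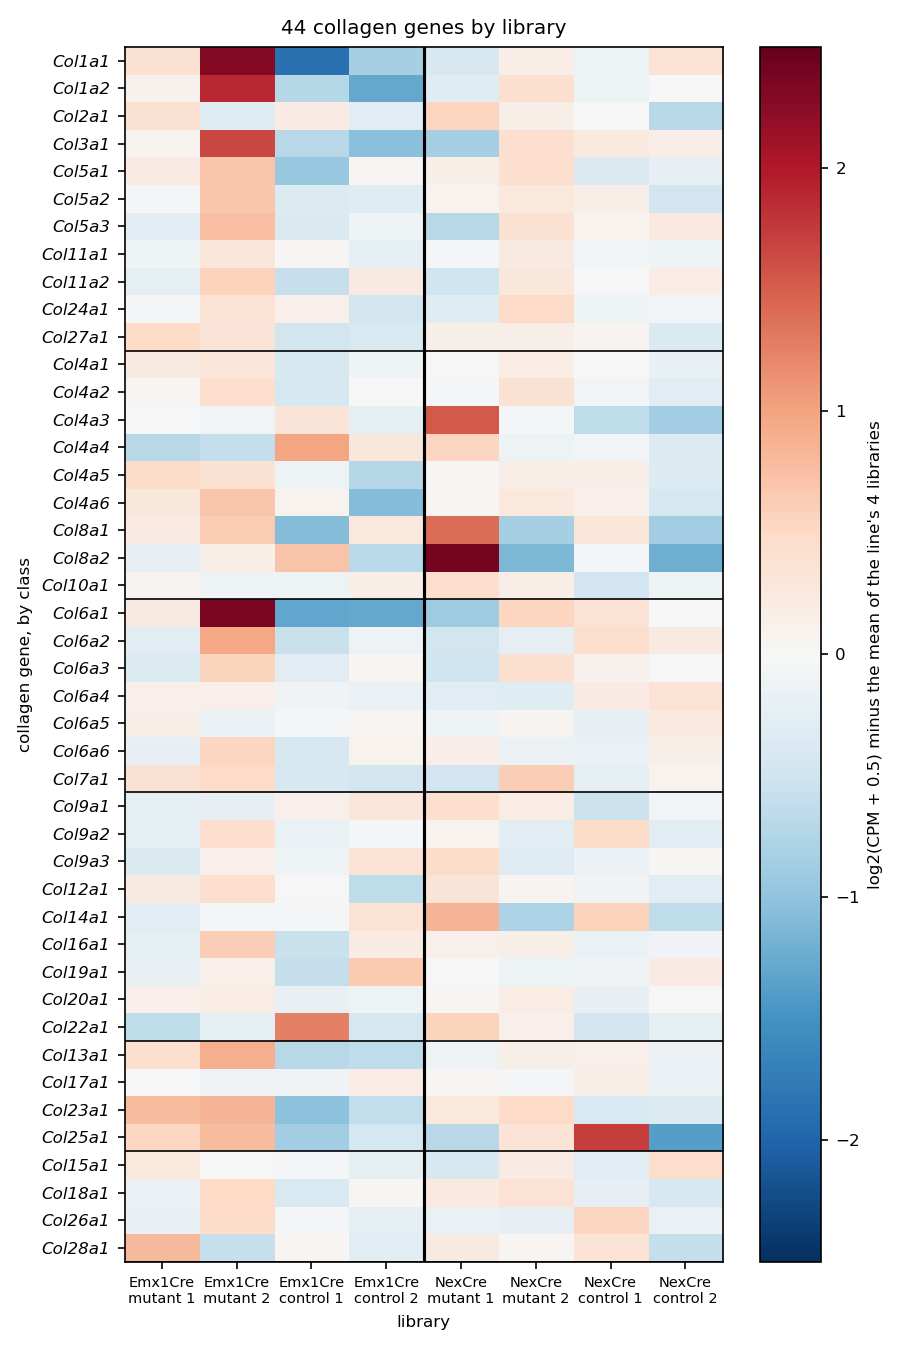
Values of the 44 collagen genes in each of the 8 libraries, as log2(CPM + 0.5) minus the mean of the 4 libraries of the same line (red above, blue below), with rows in 6 classes; values past the end of the colour bar take its end colour. Col1a1, Col1a2, Col3a1 and Col6a1 are reddest in Emx1Cre mutant 2, and Col23a1 is alike in both Emx1Cre mutants.

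A single library often carried the highest value of a gene. Emx1Cre mutant 1 held the highest CPM of its line for 7 of the 44 collagens and mutant 2 for 27, against 4 and 6 for the controls. Of the 22820 genes tested, which leave out Col6a6, these libraries were highest for 32.2% and 21.3% (mutants) and 21.1% and 25.4% (controls). In the NexCre line, the libraries labelled mutant were highest for 13 and 20 collagens and the controls for 6 and 5, beside 23.0% and 27.2% of all genes for those labelled mutant and 26.4% and 23.4% for the controls. Both mutants lay above both controls in both lines for 7 of 43 collagens, beside 2.92% of all genes: Col4a1, Col4a2, Col5a1, Col12a1, Col20a1, Col23a1 and Col27a1.

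Genes that make, process, bind and degrade collagen were read from lists by role, and none of their members passed the test over all genes in either line in edgeR. DESeq2 called Lox, Pcolce, Tll2 and Timp4 higher in the Emx1Cre line and Hspg2 in the NexCre line. Of the 19 biosynthesis genes tested (prolyl and lysyl hydroxylases, chaperones and export factors), 2 were higher and none lower before adjustment (p under 0.05, as for the other lists) in the Emx1Cre line, with a median of 0.30, and none in either direction in the NexCre line, with a median of 0.07. Of all genes, 4.52% were higher and 3.07% lower before adjustment in the Emx1Cre line, and 1.69% and 2.27% in the NexCre line. These shares stand beside the counts of the lists that follow as well. Serpinh1, the collagen chaperone, stood at 75.6 and 75.9 CPM in Emx1Cre mutants against 61.7 and 41.1 CPM in their controls (0.56 ± 0.20), and P4ha3, a prolyl hydroxylase subunit, at 22.4 and 15.3 CPM in Emx1Cre mutants against 13.4 and 9.32 CPM in their controls (0.73 ± 0.29). These groups did not overlap. In the NexCre line the lowest p belonged to Crtap (0.55 ± 0.28) and P3h4 (0.43 ± 0.22), which take part in prolyl and lysyl modification.

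Of the 14 processing and crosslinking genes, 3 were higher and 1 lower before adjustment in each line, with medians of 0.07 and 0.23. Tll2, a protease of the family that trims procollagen, stood at 4.22 and 3.37 CPM in Emx1Cre mutants against 1.13 and 0.784 CPM in their controls (1.97 ± 0.43, adjusted p = 0.193), and at 2.05 and 1.31 CPM in libraries labelled NexCre mutant against 0.529 and 0.400 CPM in NexCre controls (1.85 ± 0.47, adjusted p = 0.631). Its groups did not overlap in either line. Lox, the lysyl oxidase that crosslinks fibrils, stood at 0.426 and 5.27 CPM in Emx1Cre mutants against 0.155 and 0.054 CPM in their controls (4.61 ± 1.08), with mutant 2 highest as for Col1a1. Its relative Loxl1 stood at 15.7 and 18.7 CPM in libraries labelled NexCre mutant against 9.87 and 8.91 CPM in NexCre controls (0.87 ± 0.26).

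Of the 11 receptor genes tested, 3 were higher before adjustment in the Emx1Cre line (median 0.36) and none in the NexCre line (median 0.13), with Itgb1, the integrin beta chain shared by collagen receptors, at 149 and 125 CPM in Emx1Cre mutants against 109 and 94.8 CPM in their controls (0.43 ± 0.15) and the receptor tyrosine kinase Ddr2 at 3.65 and 5.10 CPM in Emx1Cre mutants against 2.28 and 2.57 CPM in their controls (0.85 ± 0.31). In the NexCre line Itga1 was 0.52 ± 0.28 and Ddr2 0.55 ± 0.31. Of the 11 degradation genes, 4 were higher in the Emx1Cre line (median 0.38), with the protease inhibitor Timp4 at 32.4 and 28.8 CPM in Emx1Cre mutants against 13.2 and 13.8 CPM in their controls (1.18 ± 0.30, adjusted p = 0.273) and Mmp14, a membrane-bound collagenase, at 0.49 ± 0.18. None was past that p in the NexCre line (median 0.26), where the lowest belonged to Fap (0.83 ± 0.39) and Mmp9 (0.41 ± 0.25).

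Before adjustment, 7 of the 18 other basement membrane genes were higher in the Emx1Cre line (median 0.48), beside 4.52% of all genes. In the NexCre line 2 were higher (median 0.22), beside 1.69% of all genes, and none was lower in either line. Sparc, a collagen-binding glycoprotein, stood at 399 and 336 CPM in Emx1Cre mutants against 266 and 209 CPM in their controls (0.63 ± 0.19, adjusted p = 0.394). Hspg2, which encodes perlecan, the heparan sulphate proteoglycan of basement membranes, stood at 38.5 and 32.8 CPM in Emx1Cre mutants against 26.9 and 23.7 CPM in their controls (0.49 ± 0.18). In the NexCre line Hspg2 stood at 30.9 and 37.5 CPM in libraries labelled mutant against 16.7 and 16.9 CPM in controls (1.02 ± 0.18, unadjusted p = 0.000197, adjusted p = 0.164 in edgeR), and Lama5, a laminin chain, was 0.76 ± 0.27. The groups of Hspg2 did not overlap in either line.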

How the data were processed

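RNA of 8 pools was sequenced as paired reads of 100 bases, per the labels. The authors deposited counts of reads per gene, in 1 table per line; HISAT2, SAMtools, DESeq2 and build mm10 are named in the submitters' processing notes. Not given in the sources used here are the counting program, its annotation and whether it used strand. Rows whose symbol had become a date number (26 and 24) name no gene and were left out; they held 0.239% to 0.269% of reads. Lengths and positions come from GENCODE M21 (44 of 44 collagens matched), promoter windows from RefSeq.

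All 8 libraries entered 1 fit in edgeR 4.0.16 (R 4.3.3): filterByExpr by group (minimum count 10, minimum total 15; 22820 genes), TMM, glmQLFit, group as the only term and two-sided quasi-likelihood F tests, with Benjamini-Hochberg adjustment over all genes and a threshold of 0.05. The biological coefficient of variation was 26.2%. Counts were also simulated with a coefficient of 0.26 for every gene, and changes were set only in genes with ample counts. There the fit for the Emx1Cre comparison recovered 13% of genes changed by 1 and 90% of those changed by 2 on the log2 scale. Spread differs between genes in the real counts, so these shares do not measure the power in them. Each line's mutants were compared with its controls, and the effects with each other. Replicates differed beyond counting error in every group. Alternatives were RLE and upper-quartile scaling, no and a strict low-count filter, a replicate block, each line alone, DESeq2 1.42.0 and leaving out each library.

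Values per library were given for Col23a1, for collagens called, for the 10 lowest p in each mutant comparison and for the highest RPKM of each class; pathway lists gave their called members or the 2 lowest p, and marker lists their sums with the first 3 meningeal, endothelial and mural markers. Col7a1, Col8a1, Col17a1, Col22a1, Col25a1, Aldh1a2, Cplx3, Ttr and Lhx9 were named after their values were seen where they fall outside this rule. The members, lists and rule were chosen with earlier results of these data known.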

Additional observations from a re-analysis of the deposited data

How the results depend on the processing

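The Emx1Cre comparison called 18 genes, of which 1 was a collagen. Without the low-count filter these counts were 585 and 9, with a replicate block 82 and 2 (Col1a1 and Col23a1), with the line fitted alone 0 and 0 (1181 genes at an unadjusted p under 0.05) and in DESeq2 300 and 5 (Col1a1, Col4a4, Col6a1, Col13a1 and Col23a1). Leaving out 1 library gave 0 to 28 genes and 0 to 4 collagens, and a collagen median of 0.31 to 0.69. The NexCre comparison called 7 genes and 0 collagens. These were 251 and 2 (Col4a3 and Col8a2) without the filter, and 22 genes with a replicate block, 17 with the line alone and 79 in DESeq2, with 0 collagens in each. Leaving out 1 library gave 1 to 43 genes, 0 collagens and medians of 0.13 to 0.34. The difference of effects called 1 gene and 0 collagens. It called 408 and 8 without the filter, 5 and 1 (Col1a1) with a replicate block and 99 and 2 in DESeq2; leaving out 1 library gave 1 to 31 genes, 0 collagens and medians of 0.09 to 0.52. The line fitted alone gives no value for it. RLE scaling, upper-quartile scaling and the strict filter kept each of these counts within 1.5 times. The cause of these changes was not tested. Values under the alternatives were counted for the collagens with the lowest p in each mutant comparison. Col23a1, Col1a1, Col4a4, Col6a1 and Col13a1 were added by choice for the difference of effects. In all, 339 values kept their direction and side of the threshold, 22 passed it only under an alternative and 5 lost it. The 1 that changed sign was Col8a2 in the NexCre line, at -0.76 without NexCre mutant 1 and 3.16 without NexCre mutant 2. Over all 43 collagens, the sign turned without some 1 library for 15 in the Emx1Cre line and 22 in the NexCre line. The share of all genes whose sign turned was not counted, so these counts do not set collagens apart from other genes. Same-numbered pools shared only a number; their deviations correlated at 0.39 in the Emx1Cre line and 0.199 in the NexCre line, with 2 pairs each, and the replicate block is therefore no statement about the design. Depth limits Col6a6, Col10a1, Col13a1 and Col17a1, whose counts were lowest.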

Other observations

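Of the other marker lists, 8 microglial markers summed to 125 and 183 CPM in Emx1Cre mutants and 121 and 93.4 CPM in their controls. The sum was highest in Emx1Cre mutant 2; that library was also highest for 27 of the 44 collagens. The NexCre microglial sums were 73.7 and 64.8 CPM in libraries labelled mutant and 65 and 49.3 CPM in controls. The 6 erythroid markers, mainly haemoglobin chains of blood in the vessels, summed to 1511 and 2225 CPM in Emx1Cre mutants and 1331 and 1497 CPM in their controls, again highest in Emx1Cre mutant 2, and to 906 and 597 CPM in libraries labelled NexCre mutant and 1180 and 819 CPM in NexCre controls. The 6 Cajal-Retzius markers summed to 111 and 130 CPM in Emx1Cre mutants and 143 and 165 CPM in their controls, and to 602 and 427 CPM in libraries labelled NexCre mutant and 538 and 542 CPM in NexCre controls. No member of these 3 lists passed the test in edgeR or DESeq2 in either line. Before adjustment edgeR gave p under 0.05 to 1 microglial marker (higher) and 2 Cajal-Retzius markers (lower) in the Emx1Cre line. Of all genes, 4.52% were higher and 3.07% lower in that way. The part of these cells in the collagen values was not tested.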
